A study of Drosophila melanogaster with 4 samples.

Results

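The assembled heterochromatin of the third chromosome of Drosophila melanogaster was examined for H3K9me2, histone H3 dimethylated at lysine 9, on the sequences 3LHet and 3RHet of FlyBase release 5. The regions described are all entries for these sequences in the list that the authors deposited for both replicates jointly, and they are called pooled domains here. They numbered 228 of the 4277 in that list, with 129 on 3LHet and 99 on 3RHet. Choosing them used only the sequence name and no measured value.

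All samples were wild-type Oregon-R embryos labelled as 14 to 16 h old. The labels list 2 H3K9me2 ChIP libraries and 2 input libraries, each numbered as replicates 1 and 2, and name the antibody as Ab2, new lot. The embryos were whole, so every value averages over all their tissues. Separate embryo collections for the ChIP replicates are not stated in the labels. The SDs below therefore measure only the spread between these libraries, which may be technical. The files hold positions and 1 score per region but no read counts, and the depth behind each region is therefore unknown.

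H3K9me2 is the hallmark modification of constitutive heterochromatin. In flies it is deposited by the methyltransferases Su(var)3-9, Eggless and G9a, and it is read by the chromodomain protein HP1a, which compacts the chromatin and recruits further methyltransferase. The DNA around the centromere of the third chromosome consists largely of transposon remnants and satellite repeats, yet it also carries scattered essential genes. The Het sequences hold the part of this DNA that was assembled and assigned to a chromosome arm but was kept apart from the arm sequence in release 5. No gene was placed on the domains, because the gene table used here belongs to release 6.

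Most of both sequences was marked. 3LHet was marked more evenly, whereas 3RHet held more of its marked length in long domains and had wider unmarked stretches. Covered shares refer to the full sequence length, with no correction for assembly gaps. Replicate clusters covered 82.9% of 3LHet in replicate 1 and 81.3% of it in replicate 2, and the mean was 82.1% ± 1.16 (SD, n = 2). On 3RHet they covered 78.1% in replicate 1 and 77.4% in replicate 2, and the mean was 77.7% ± 0.508 (SD, n = 2). The difference, 3LHet minus 3RHet, was 4.83 percentage points in replicate 1 and 3.91 in replicate 2, which is larger than the spread between the libraries. No test across 2 libraries was made, since an exact sign-flip test over 2 libraries cannot give a p below 0.5. Without the last 200 kb of 3RHet, which were left out after the data had been seen, the difference was 1.12 percentage points in replicate 1 and 0.0757 in replicate 2. Leaving out any sparsely covered stretch of 3RHet alone must shrink the difference. These values therefore do not show that this end in particular carried it. In the authors' pooled list the covered shares were 87.3% of 3LHet and 82.0% of 3RHet. Other Het sequences, which are 2LHet, 2RHet, XHet and YHet as 1 group, were covered over 68.2% ± 1.34 (SD, n = 2), below both 3LHet and 3RHet by more than the replicate spread.

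Domain lengths spanned more than 2 orders of magnitude in both sequences. On 3LHet the pooled domains ran from 1001 bp to 100 kb, with a median of 10.8 kb and quartiles of 4.50 and 22.1 kb. On 3RHet they ran from 1009 bp to 147 kb, with a median of 7.46 kb and quartiles of 2.15 and 27.5 kb. The quartiles show a wider distribution on 3RHet, which had both more short and more long domains for its number. The order of the medians was less clear in the replicates. In replicate 1 the median cluster was 9.97 kb on 3LHet and 8.64 kb on 3RHet, and in replicate 2 it was 8.10 and 7.98 kb, a difference of only 0.118 kb.

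**Figure D1:**
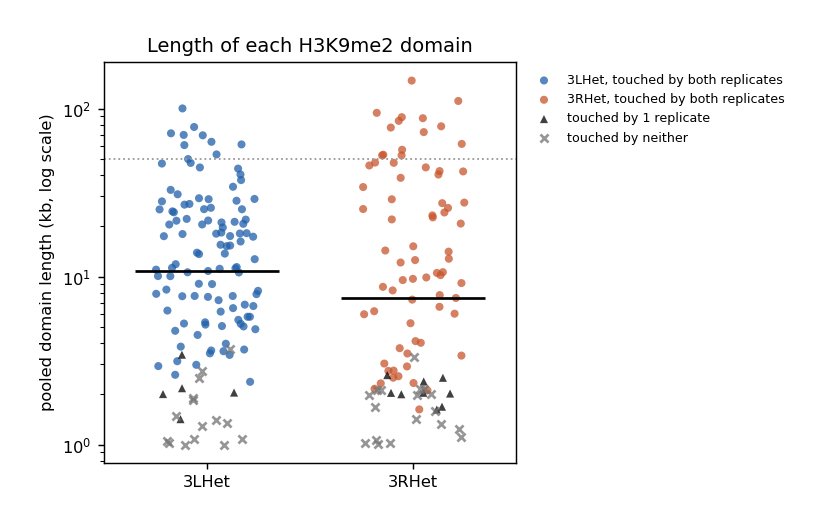
Length of each pooled H3K9me2 domain in kb (log scale) on 3LHet, with 129 domains, and on 3RHet, with 99 domains. Each point is 1 domain, marked by whether replicate clusters touch it, the horizontal bars are the medians of 10.8 and 7.46 kb, and the dotted line is at 50 kb; the domains that lack support from both replicates lie at the short end.

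The marked DNA of 3RHet was concentrated in long domains to a greater degree than that of 3LHet. Domains of at least 50 kb numbered 10 of 129 on 3LHet and 14 of 99 on 3RHet, while 1.5% of the whole pooled list reached this length. They held 30.3% of the covered length of 3LHet and 54.2% of that of 3RHet. The same order was found in each replicate, with 24.5% on 3LHet and 42.1% on 3RHet in replicate 1, and 16.7% and 41.5% in replicate 2. For 3LHet the share thus moved by more than 1.5 times between the pooled list and replicate 2. Its replicate mean, 20.6%, was near the 21.2% of the other Het sequences, and that of 3RHet was 41.8%. Just above the 50 kb limit lay domains of 50059 bp on 3LHet and 52641 bp on 3RHet, and just below it domains of 47481 and 47695 bp.

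The covered length can also be ordered by domain size. On 3LHet, 50% of the pooled covered length lay in domains of 28.9 kb or more, against 52.7 kb on 3RHet. In the replicates this length averaged 21.8 ± 2.63 kb on 3LHet and 41.3 ± 1.28 kb on 3RHet (SD, n = 2), a difference of -18.6 kb in replicate 1 and -20.5 kb in replicate 2. The difference was several times the spread between libraries. For the other Het sequences the corresponding mean was 22.5 ± 2.58 kb (SD, n = 2), which lies within the replicate spread of 3LHet and below 3RHet.

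Medium-sized domains made up most of 3LHet. Domains of 10 to 50 kb numbered 59 there and held 58.1% of its covered length. On 3RHet, 28 domains of this size held 36.0%. Domains of 2 to 10 kb numbered 47 on 3LHet and 40 on 3RHet and held 10.8% and 8.60% of the covered length. Domains under 2 kb made up 39.3% of the whole pooled list and 13.3% of the domains on the other Het sequences. They numbered 13 on 3LHet, or 10.1%, and 17 on 3RHet, or 17.2%. They held 0.758% of the covered length of 3LHet and 1.23% of that of 3RHet.

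**Figure D2:**
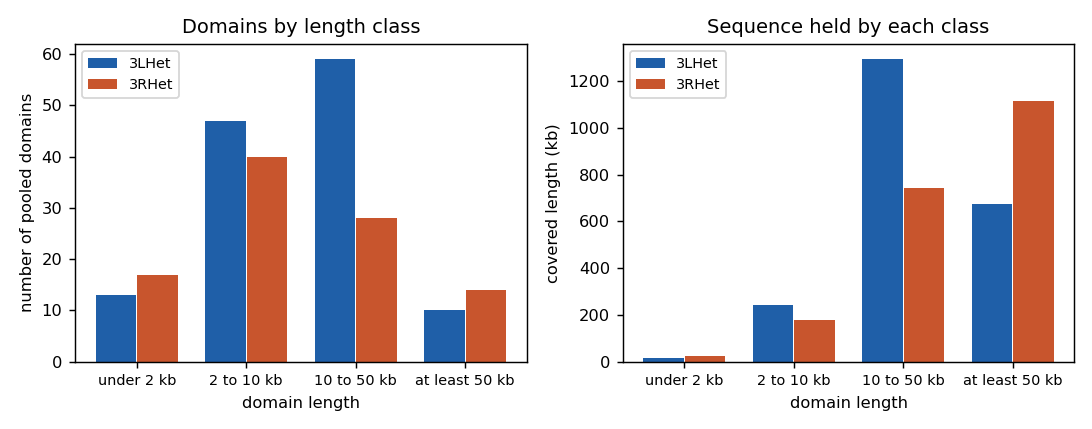
Number of pooled domains (left) and the covered length they hold in kb (right) in 4 length classes, with 3LHet left of 3RHet in each class. The class of 10 to 50 kb holds the most sequence on 3LHet and the class of at least 50 kb the most on 3RHet.

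The longest domain of 3LHet was 100 kb long, at 3LHet:340885-441054. Replicate 1 held it as a cluster of 5.39 kb and one of 92.4 kb, and replicate 2 as clusters of 5.18 and 92.5 kb. Both replicates therefore broke this domain at the same place, near its left edge, and their clusters covered 97.6% and 97.5% of it. The second longest, 77.7 kb at 3LHet:1991230-2068909, was 1 cluster of 77.6 kb in replicate 1. Replicate 2 divided it into clusters of 25.3, 14.0 and 37.4 kb. It was covered over 99.9% in replicate 1 and 98.9% in replicate 2, so the division removed little of its length.

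The other three of the 5 longest domains of 3LHet lay far apart along the sequence. The domain at 3LHet:1587906-1659140, 71.2 kb long, was a single cluster in both replicates, of 68.9 kb in replicate 1 and 67.8 kb in replicate 2. The domain at 3LHet:738548-807856, 69.3 kb long, was also a single cluster in both, of 69.2 and 68.8 kb. The domain at 3LHet:1303869-1373557, 69.7 kb long, was divided into 3 clusters by replicate 1 and into 2 by replicate 2. One of the breaks was common to both replicates, with clusters starting at 1352088 in replicate 1 and 1352535 in replicate 2.

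The longest domain of 3RHet, and of the whole pooled list, was 147 kb long, at 3RHet:520926-667598. Replicate 1 divided it into clusters of 17.0, 61.1 and 66.7 kb, and replicate 2 into clusters of 78.0, 50.0 and 16.7 kb. The replicates shared 1 break, where a cluster ended at 599809 in replicate 1 and at 599723 in replicate 2, and each had 1 break of its own. Despite this, the clusters covered 98.8% of the domain in replicate 1 and 98.7% in replicate 2. Immediately to its left lay the longest unmarked stretch of either sequence.

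The longest single replicate clusters of the 2 sequences lay in the second longest domain of 3RHet, 111 kb at 3RHet:1496272-1607231. It was a single cluster of 111 kb in replicate 1 and of 110 kb in replicate 2, covered over 99.7% and 99.5%. The domain at 3RHet:856444-950735, 94.3 kb long, was 1 cluster in replicate 1 and clusters of 69.4 and 23.7 kb in replicate 2. The domain at 3RHet:218992-306595, 87.6 kb long, was likewise 1 cluster in replicate 1, while replicate 2 divided it into clusters of 2.23, 68.6 and 16.1 kb. The domain at 3RHet:1087808-1176658, 88.9 kb long, was divided into 2 clusters by replicate 1 and 3 by replicate 2, and they shared 1 break, after which the last cluster began at 1150093 in replicate 1 and 1150350 in replicate 2. In either replicate each of these 4 domains was covered over 98.7% to 99.7%.

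**Figure D3:**
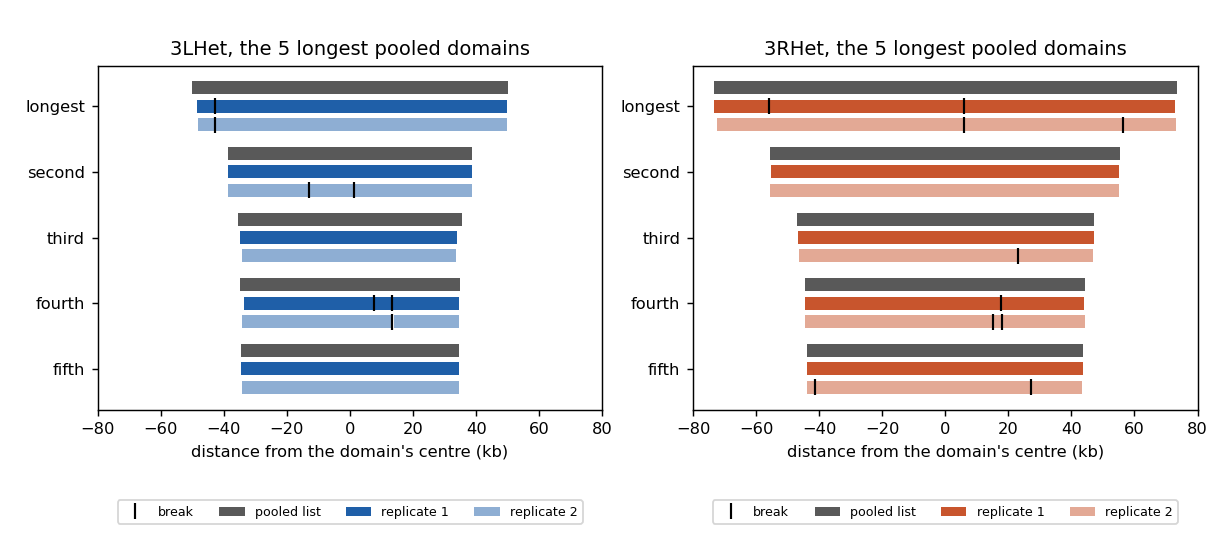
The 5 longest pooled domains of 3LHet (left) and of 3RHet (right), aligned at their centres, with the distance from the centre in kb on the x axis. Grey bars are the pooled domains, dark and pale bars the clusters of replicate 1 and replicate 2, and black ticks mark the breaks between clusters, which are drawn wider than they are; the breaks differ between the replicates in most domains, although nearly the same bases are covered.

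Most pooled domains had support in both replicates. A domain was counted as touched by a replicate when a cluster of that replicate overlapped it by at least 1 bp. Both replicates touched 109 of 129 domains on 3LHet, or 84.5% (95% Wilson interval 77.3 to 89.7%), and 72 of 99 on 3RHet, or 72.7% (63.2 to 80.5%). In the whole pooled list 54.6% were touched by both, and on the other Het sequences 79.5% were, a share between those of 3LHet and 3RHet. The intervals cover counting error only, and long domains in densely marked sequence are easily touched. The domains touched by both held 98.4% of the covered length of 3LHet and 97.6% of that of 3RHet, but an overlap of 1 bp counts the whole domain. Bases marked in both replicates made up 80.2% of 3LHet and 76.1% of 3RHet, against pooled covered shares of 87.3% and 82.0%. How the authors combined the replicates is not known, so the pooled list may rest on the same reads and is not independent of them.

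Domains that lacked a replicate were short and held little of the covered length. On 3LHet 15 domains were touched by neither replicate and on 3RHet 18, or 11.6% and 18.2%, against 13.3% on the other Het sequences and 25.2% of the whole pooled list. They were 1001 to 3731 bp long on 3LHet and 1009 to 3318 bp long on 3RHet. Of these, 7 on 3LHet and 6 on 3RHet were shorter than 1301 bp, the shortest cluster in either replicate list. A longer cluster could still have touched them, and why the untouched domains lacked support was not tested. A single replicate touched 5 further domains on 3LHet and 9 on 3RHet, or 3.88% and 9.09%. The share was 7.14% on the other Het sequences and 20.2% in the whole pooled list. The longest domain touched by neither lay at 3LHet:1215692-1219422, 3.73 kb long, with a counterpart on 3RHet at 3RHet:2011427-2014744, 3.32 kb long. The longest touched by only 1 replicate were 3.43 kb at 3LHet:573301-576730, where replicate 1 had a cluster of 2.03 kb, and 2.59 kb at 3RHet:2510389-2512981, where replicate 2 had a cluster of 1.42 kb.

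In the other direction, no replicate cluster lay outside the pooled domains. All 141 clusters of replicate 1 and all 161 of replicate 2 on 3LHet touched a pooled domain, as did all 104 and all 108 on 3RHet. Only 3 clusters spanned 2 pooled domains, 2 of them in replicate 1 on 3LHet and 1 in replicate 2 on 3RHet. Nearly every replicate cluster thus touched a single pooled domain, although 15 pooled domains on 3LHet and 18 on 3RHet were touched by no cluster. Between the replicates themselves, 134 of the 141 replicate 1 clusters on 3LHet and 99 of the 104 on 3RHet touched a replicate 2 cluster. The largest cluster without a partner in the other replicate was 2512 bp long.

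The replicates divided the same domains in different ways. On 3LHet 70 domains were 1 cluster in each replicate, 20 were divided into 2 or more clusters by both replicates, 4 by replicate 1 only and 15 by replicate 2 only. On 3RHet these numbers were 49, 15, 3 and 5. Both replicates divided 15.5% of domains on 3LHet and 15.2% on 3RHet, against 11.4% on the other Het sequences and 6.36% of the whole pooled list. Replicate 1 divided 24 domains of 3LHet and 18 of 3RHet, or 18.6% and 18.2%, against 17.6% and 8.65%. Replicate 2 divided 35 and 20 domains, or 27.1% and 20.2%, against 21.4% and 10.9%. Replicate 2 had more clusters per Mb on both sequences, with 63.0 on 3LHet and 42.9 on 3RHet, against 55.2 and 41.3 in replicate 1. The order was the same on the other Het sequences, with 57.3 in replicate 2 and 53.2 in replicate 1. Over all sequences it was the reverse, with 19.2 in replicate 2 and 21.2 in replicate 1. Domains divided by at least 1 replicate made up 30.2% on 3LHet (95% Wilson interval 23.0 to 38.6%) and 23.2% on 3RHet (16.0 to 32.5%), while the share was 27.6% on the other Het sequences and 13.2% in the whole pooled list. The intervals for 3LHet and 3RHet overlap, and both include the share of the other Het sequences. They cover counting error only, over domains that share the same libraries, so they do not decide whether the sequences differ.

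Division went with length. Of the domains under 2 kb none was divided, and of those of 2 to 10 kb only 1 of 47 on 3LHet and 2 of 40 on 3RHet. Of the domains of 10 to 50 kb, 30 of 59 were divided on 3LHet and 11 of 28 on 3RHet. Of those of at least 50 kb, 8 of 10 were divided on 3LHet and 10 of 14 on 3RHet. A longer domain offers more places for a break, so these shares are a description of the lists and do not compare the strength of marking.

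On 3LHet the domain at 3LHet:2410971-2458451, 47.5 kb long, was held as 4 clusters by replicate 1, more than any other there, and as 5 by replicate 2. The clusters covered 92.6% and 92.1% of it. A domain of 25.7 kb at 3LHet:148085-173760 was also held as 5 clusters by replicate 2, but as 2 by replicate 1. The pooled score of the 47.5 kb domain, 1.58, was below the 3LHet median of 2.13. On 3RHet 3 domains shared the highest number in replicate 1, which was 4 clusters. The longest of them, 84.5 kb at 3RHet:2268439-2352931, had 3 clusters in replicate 2. The others, 72.4 kb at 3RHet:2132930-2205343 and 24.1 kb at 3RHet:2205978-2230056, had 4 clusters in replicate 2 too. Replicate 2 divided the domain at 3RHet:1347166-1391819, 44.7 kb long, into 6 clusters, and replicate 1 into 2. That domain was covered over 96.8% in replicate 1 but over only 86.2% in replicate 2, so here the division also removed marked length.

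The breaks themselves were short and only partly shared. On 3LHet replicate 1 had 30 breaks inside pooled domains with a median length of 321.5 bp, and replicate 2 had 51 with a median of 250.0 bp. On 3RHet replicate 1 had 27 breaks with a median of 384 bp and replicate 2 had 33 with a median of 460 bp. The longest break was 3471 bp, in replicate 2 on 3LHet. The shortest was 0 bp, in replicate 1 on 3LHet, where adjacent clusters abutted, so a break need not mean a loss of marked length. On 3LHet 15 breaks of replicate 1 overlapped a break of replicate 2, which is 50.0% of the replicate 1 breaks and 29.4% of the replicate 2 breaks. On 3RHet 13 were shared, or 48.1% and 39.4%. Since any overlap counted, a longer break is more readily shared. On 3LHet the median shared break was 392 bp in replicate 1 and 591 bp in replicate 2, and the breaks of 1 replicate alone had medians of 251 and 228 bp. On 3RHet the medians were 543 and 843 bp for shared breaks and 371 and 253 bp for the others.

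Where both replicates held a domain as 1 cluster, their edges lay close together. Over 140 edges on 3LHet the median distance between the replicates was 116.5 bp, and 60.7% of edges lay within 200 bp of each other. Over 98 edges on 3RHet the median was 90 bp, and 71.4% lay within 200 bp. In 3 of these domains on 3LHet and 1 on 3RHet a replicate cluster ran on into a neighbouring pooled domain, which gave distances of up to 9141 bp on 3LHet and 21670 bp on 3RHet. Without these domains, left out after the data had been seen, 7 of 134 edges on 3LHet and 6 of 96 on 3RHet were more than 1 kb apart, and the largest distances were 1649 and 3405 bp. Replicate edges lay inside the pooled domain in 90.4% of cases on 3LHet and 88.3% on 3RHet, by a median over all edges of 118 and 79.0 bp.

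Base by base, the replicates marked nearly the same DNA. The Jaccard index, which is the length marked in both over the length marked in either, was 0.954 on 3LHet and 0.959 on 3RHet, and 0.939 on the other Het sequences. Of the bases marked in replicate 1, 96.7% on 3LHet and 97.5% on 3RHet were marked in replicate 2. Of those marked in replicate 2, 98.6% and 98.4% were marked in replicate 1. A further 86.5 kb of 3LHet and 67.9 kb of 3RHet were marked in the pooled list only, which is 3.38% and 2.70% of each sequence.

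Along 3LHet the marking varied less between windows than along 3RHet. In 26 windows of 100 kb, the last of them shorter, the covered share ranged from 48.7% to 97.8% in replicate 1, with a median of 83.4%, and from 48.3% to 97.1% in replicate 2, with a median of 81.2%. Only the window at 2300001 to 2400000 was covered over less than 50% in each replicate. The most fully marked was the window at 2000001 to 2100000, with 97.8% in replicate 1 and 97.1% in replicate 2. The left 50% of 3LHet was covered over 83.4% in replicate 1 and 81.7% in replicate 2, and the right 50% over 82.4% and 80.9%. Long domains were spread likewise, with 4 of the 10 of at least 50 kb centred in the left 50% and 6 in the right.

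Along 3RHet the covered share was at least 75% in 16 of 26 windows in each replicate, and it fell below 50% in 2 places. The covered share of its 26 windows ranged from 9.01% to 100% in replicate 1, with a median of 86.7%, and from 16.0% to 100% in replicate 2, with a median of 86.3%. The window at 1500001 to 1600000 was covered in full in both replicates and lies inside the 111 kb domain. Windows under 50% numbered 4 in each replicate. A pair of them adjoined, at 300001 to 400000 with 42.0% in replicate 1 and 41.1% in replicate 2, and at 400001 to 500000 with 45.8% and 41.4%. The remaining pair closed the sequence. The SD of the covered share over windows was 10.6 percentage points on 3LHet and 23.7 on 3RHet, and without the last, shorter window, left out after the data had been seen, it was 10.6 and 20.4.

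**Figure D4:**
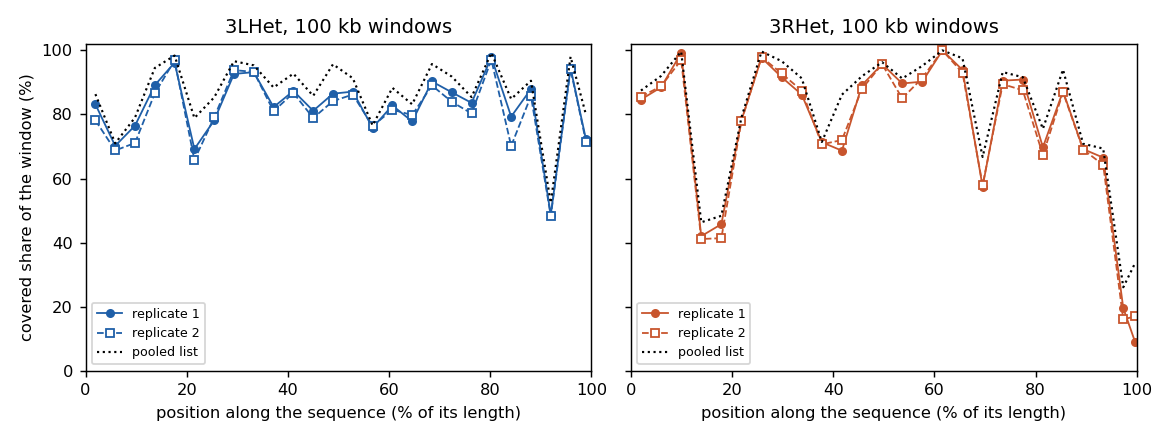
Covered share of 100 kb windows (%) along 3LHet (left) and 3RHet (right), with the position as a percent of the length of each sequence. Filled circles are replicate 1, open squares replicate 2 and the dotted line the pooled list; the replicates follow each other closely, 3LHet stays above 48% in every window, and 3RHet drops below 50% in 2 places, the second of them its right end.

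The right end of 3RHet differed from the rest of that sequence. The window at 2400001 to 2500000 was covered over 19.5% in replicate 1 and 16.0% in replicate 2, and the last window, from 2500001 to 2517507, over 9.01% and 17.0%. No domain of at least 50 kb lay to the right of position 2352931. The 17 pooled domains beyond it had a median length of 2035 bp, the longest was 7.76 kb, and their median score was 0.598, against 2.31 for all 3RHet domains. Both replicates touched 8 of them, 1 replicate touched 5 and neither touched 4. On 3LHet the stretch beyond the last domain of at least 50 kb was shorter, 32.2 kb against 164.6 kb on 3RHet. It was covered over 53.6% in replicate 1 and 52.4% in replicate 2, against 21.3% and 18.6% on 3RHet, and its 3 domains had a median score of 1.35. Over the same distance from the end, the last 100 kb of 3LHet, which include a 63.4 kb domain, were covered over 83.1% in replicate 1 and 82.6% in replicate 2, and the last 100 kb of 3RHet over 21.1% and 19.0%. The last domain of 3RHet ran past the stated end of the sequence in all 3 lists and was trimmed there. These stretches were chosen after their values had been seen.

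The unmarked DNA of 3RHet lay mostly in a few wide gaps. Gaps of at least 10 kb between pooled domains numbered 5 on 3LHet, with 105 kb in all, and 9 on 3RHet, with 283 kb. Each replicate list had 8 such gaps on 3LHet and 12 on 3RHet. These summed to 145 kb on 3LHet and 356 kb on 3RHet for replicate 1, and to 148 and 349 kb for replicate 2. In the pooled list they made up 32.4% of the unmarked length of 3LHet and 62.4% of that of 3RHet. In the replicates these shares were 33.2% and 64.5% in replicate 1, and 30.9% and 61.2% in replicate 2, so the contrast was much larger than the replicate spread. Most gaps were short: the median was 1279 bp on 3LHet and 1593 bp on 3RHet, and 45.3% and 41.8% of gaps were under 1 kb. Whether the gaps hold assembled sequence to which reads can be assigned was not tested, since no release 5 genome was used here.

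The widest gap of 3LHet spanned 45.2 kb, at 3LHet:2328469-2373620, and lies within its sparsest window. In the replicates it measured 47.2 kb in replicate 1 and 47.0 kb in replicate 2. Next were 23.4 kb at 3LHet:1457302-1480728 and 13.1 kb at 3LHet:518040-531151. For the 23.4 kb gap the replicate edges lay within 200 bp of the pooled edges on both sides.

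On 3RHet 3 gaps exceeded the widest of 3LHet. The widest spanned 72.0 kb, at 3RHet:448958-520925, and measured 73.2 kb in replicate 1 and 74.2 kb in replicate 2. The second, 54.6 kb at 3RHet:2383062-2437653, lies in the sparse right end, and it measured 61.2 kb in replicate 1 and 65.1 kb in replicate 2. The third, 49.2 kb at 3RHet:317445-366624, measured 49.3 kb in replicate 1 and 49.4 kb in replicate 2. The first and the third lie on either side of a block of domains between 366625 and 448957, and both fall largely within the adjoining sparse windows.

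The score that the authors give each region has no stated scale and is used only to rank regions within a list. The median pooled score was 2.13 on 3LHet and 2.31 on 3RHet, at percentiles 78.3 and 81.8 of the whole pooled list. In replicate 1 the medians were 2.12 on 3LHet and 2.29 on 3RHet, and in replicate 2 they were 2.28 and 2.59. The pooled quartiles were 1.60 and 2.52 on 3LHet and 1.35 and 2.84 on 3RHet, so on 3RHet the lower quartile ranked lower and the upper quartile higher. Longer domains tended to score higher within each sequence. Spearman's rho between length and pooled score was 0.436 over the 129 domains of 3LHet and 0.467 over the 99 of 3RHet, as a description, since the domains share libraries and calling.

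The median pooled score was higher in each longer class. On 3LHet it was 1.35 for domains under 2 kb, 1.84 for 2 to 10 kb, 2.21 for 10 to 50 kb and 2.44 for at least 50 kb. On 3RHet it was 1.35, 1.81, 2.57 and 2.81. No domain of at least 50 kb scored below 2.01 on 3LHet or 2.07 on 3RHet, whereas every shorter class reached lower scores. Scores above the highest of this class, 2.74 on 3LHet and 3.04 on 3RHet, occurred in each shorter class except that under 2 kb on 3LHet, where the highest was 2.51.

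**Figure D5:**
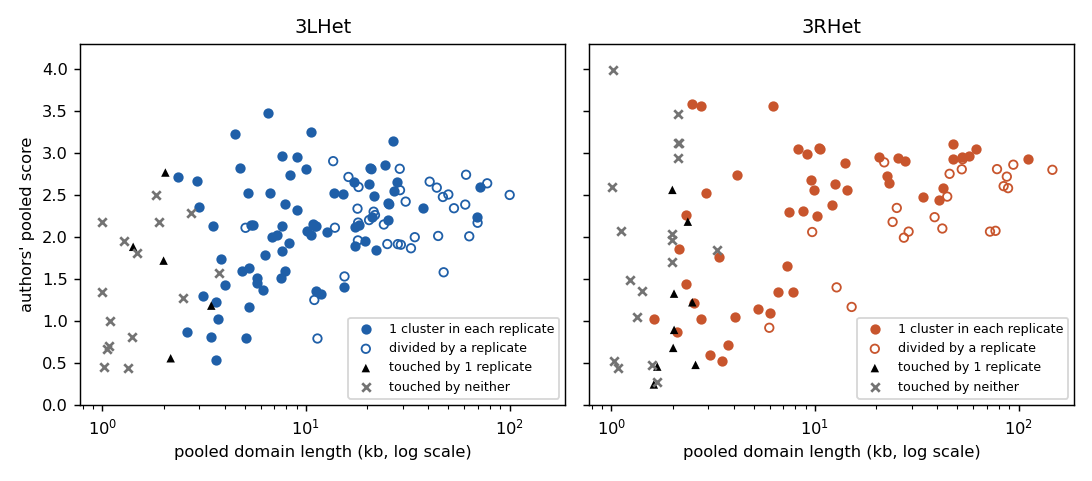
The authors' pooled score of each domain (y axis, scale not stated) against its length in kb (x axis, log scale) on 3LHet (left) and 3RHet (right). Filled circles are domains held as 1 cluster by each replicate, open circles domains divided by at least 1 replicate, triangles domains touched by 1 replicate and crosses domains touched by neither; domains of at least 50 kb score between 2.01 and 3.04, and short ones spread over the whole range.

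The highest-scoring domains of the sequences differed in support. On 3LHet it was a domain of 6.49 kb at 3LHet:134680-141173, with a pooled score of 3.48. It was 1 cluster in each replicate, with scores of 3.38 in replicate 1 and 3.60 in replicate 2. On 3RHet the highest score, 3.99, belonged to a domain of only 1018 bp at 3RHet:1073620-1074637, which neither replicate touched. It was 1 of 5 neighbouring domains without replicate support, between 1070339 and 1082597, each 1018 to 2158 bp long and with scores from 1.70 to 3.99. A pair of these domains had the same score, 3.12, to 9 decimals, and 3 other domains of the 2 sequences shared a score of 2.18. These runs and ties were noticed after the values had been seen, and what produced them was not tested.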

How the data were processed

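The data are 3 lists of regions of significant enrichment on FlyBase release 5, per the file headers, 1 for each of 2 ChIP replicates and 1 for the replicate set (the pooled list). Bowtie 0.12.7 was among the tools used, per the submitters' processing notes. Not given in the sources used here are the region caller, its threshold and the way replicates were combined. Each region has a start, an end and a score deposited by the authors, whose scale is not stated. The 2 input libraries enter only through the authors' calls. A shallower library or a stricter threshold would shorten a list and could open breaks, and depth could not be assessed from regions without counts.

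Regions were read with Python 3.11.15, numpy 2.4.6 and pandas 2.3.3, and Wilson intervals and Spearman's rho came from scipy 1.17.1. Regions past the end of a sequence were trimmed, which affected 1 region of 3RHet in each list and none of 3LHet. Covered share is covered length over the sequence length in the headers, 2555491 bp for 3LHet and 2517507 bp for 3RHet, with no correction for assembly gaps. Overlap meant at least 1 bp. The interval functions were tested on simulated regions with known coverage and divisions. With 1 condition and 2 libraries, no test was run. Regions were named by rule: on each sequence the 5 longest pooled domains, the highest-scoring one, the one divided most by each replicate, the longest touched by 1 replicate and by neither, and the 3 longest gaps. The regions, limits and alternatives were chosen with earlier results of these data known. Gene names were not assigned, since the gene table is of release 6.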

Additional observations from a re-analysis of the deposited data

How the results depend on the processing

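Values are compared with the spread between the replicates, or for shares of domains with their 95% Wilson interval, and 3LHet is given before 3RHet. That interval covers counting error only and serves here as a yardstick, not a test. The pooled list in place of the replicate mean gave covered shares of 87.3% and 82.0%, a difference of 5.29 percentage points, 50.5 and 39.3 clusters per Mb, and an SD over windows of 3RHet of 21.0. The upper 50% of each list by score gave covered shares of 77.5% and 74.3%, a difference of 3.25, 50.3 and 32.0 clusters per Mb, a median length of 9.62 kb and 54.8% of length in domains of at least 50 kb on 3RHet, 73.2% of domains touched by both on 3LHet, and a median gap of 1350 bp on 3LHet. With clusters of at least 2 kb only, 3RHet had a covered share of 76.9%, 37.3 clusters per Mb and 54.8% of length in domains of at least 50 kb, median lengths were 12.3 and 10.4 kb, and 94.0% and 86.6% of domains were touched by both replicates. Merging clusters closer than 1 kb gave 78.3% of 3RHet covered, 37.4 and 29.4 clusters per Mb, median lengths of 24.5 and 12.3 kb, 51.8% and 73.6% of length in domains of at least 50 kb, 93.0% and 82.8% touched by both, and 36.2% divided on 3RHet. The mean of the replicate lists in place of the pooled list gave median lengths of 9.04 and 8.31 kb and 20.6% and 41.8% of length in domains of at least 50 kb. Median gaps on 3LHet were 1583 bp in replicate 1 and 1492 bp in replicate 2, and on 3RHet 1966 and 2155 bp. Windows of 50 kb gave SDs of 15.0 and 27.0. Chosen after the data were seen, leaving out the last 200 kb of 3RHet gave a difference of 0.597, and leaving out the last window gave an SD of 20.4 on 3RHet.

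The order of the sequences stayed the same in each of these settings, but in some by little. With clusters closer than 1 kb merged, divided domains made up 36.6% on 3LHet and 36.2% on 3RHet. Without the last 200 kb of 3RHet, the difference in covered share was only 0.597 percentage points. Leaving out a sparsely covered stretch of 1 sequence must shrink that difference. Apart from the construction of the settings, the cause of these shifts was not tested. The remaining 35 values stayed within the spread, including those without 1 replicate, which by construction lie within the SD of 2. An overlap of at least 50% of the shorter interval changed no count. No paired analysis was possible because the inputs have no region list of their own. Depth limits are unknown.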
